A study of Mus musculus with 17 samples.

Results

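The 10 genes described here, Acta2, Actg2, Myh11, Myl9, Tagln, Cnn1, Cald1, Tpm1, Tpm2 and Des, encode the contractile apparatus of smooth muscle. They were chosen by name from 24015 genes listed in the count files, and all 10 were present. The libraries were mRNA sequencing of CD-1 mouse cells in 5 groups. The labelled control was mouse embryonic fibroblasts (MEF), grown for 3 passages in their own medium and represented by 3 libraries. The other cells were XEN cells, which are lines of extraembryonic endoderm stem cells, and iXEN cells, which are induced lines of that kind. Both spent 10 passages in ESC medium, followed by 5 passages in either ESC or XEN medium. XEN lines 1, 2 and 7 and iXEN lines 1, 2, 6 and 9 each gave 1 library in each medium. The series title says that OSKM, the reprogramming factors Oct4, Sox2, Klf4 and c-Myc, induced the iXEN cells. Transgene levels in them were not analysed here. MEF differ from every other group in cell type, medium and passage number together, and these cannot be told apart.

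Smooth muscle contracts when the myosin heavy chain, held in filaments with its regulatory light chain, pulls on actin filaments. Tropomyosins lie along those actin filaments, and caldesmon, calponin and transgelin bind them and modulate or stabilise them, while desmin forms intermediate filaments. Serum response factor (SRF), with its cofactors of the myocardin family, binds the CArG box in the promoters of many of these genes. Cultured fibroblasts express much of the set, Acta2 above all, when they take on a myofibroblast state under TGF-beta and tension. Extraembryonic endoderm, an epithelium of the early embryo, forms the parietal and visceral yolk sac endoderm and is not a muscle lineage.

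Promoter sequence bears on these genes because they share a regulator. The RefSeq promoter table for GRCm38.p6 held windows for 7 of the 10 genes. Tagln, Actg2 and Myh11 were not among them. The 250 bases before the annotated start were searched for the CArG box on both strands, which its symmetry makes 1 search, and for a CArG-like form that has 1 G or C among the 6 central bases. A CArG box was found in 482 of 32851 windows of the table (1.47%), and a CArG box or CArG-like form in 2823 (8.59%). Among the 8 windows of the contractile genes (Cald1 has 2 starts), 1 held a CArG box and 2 held either form. The 3 windows below are those of the smooth muscle actin and light chain genes, which held all the matches, and of Tpm1, which fell in every comparison with MEF and held none. Capitals mark a match. The Acta2 window is chr19:34255374-34255623 on the minus strand, with CArG-like forms that begin 84 and 34 bases before the start. The Myl9 window is chr2:156775214-156775463 on the plus strand, with a CArG box 161 bases and a CArG-like form 99 bases before the start. The Tpm1 window is chr9:67049214-67049463 on the minus strand. A match is a string of letters, not a bound site, and no binding was measured.
Acta2: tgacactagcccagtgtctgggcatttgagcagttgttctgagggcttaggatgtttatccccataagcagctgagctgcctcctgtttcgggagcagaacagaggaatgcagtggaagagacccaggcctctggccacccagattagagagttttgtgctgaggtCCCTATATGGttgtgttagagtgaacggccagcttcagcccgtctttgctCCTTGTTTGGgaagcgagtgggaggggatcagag
Myl9: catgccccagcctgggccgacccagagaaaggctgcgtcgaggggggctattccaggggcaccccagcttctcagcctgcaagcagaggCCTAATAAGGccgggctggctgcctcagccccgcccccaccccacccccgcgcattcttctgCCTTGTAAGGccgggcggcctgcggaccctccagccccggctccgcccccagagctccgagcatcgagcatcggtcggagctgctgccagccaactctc
Tpm1: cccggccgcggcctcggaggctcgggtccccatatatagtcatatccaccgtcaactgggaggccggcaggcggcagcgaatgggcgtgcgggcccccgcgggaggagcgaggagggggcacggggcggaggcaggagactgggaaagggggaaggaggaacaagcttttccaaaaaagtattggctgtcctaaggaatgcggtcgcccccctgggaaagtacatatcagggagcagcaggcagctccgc

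Counts in genes came to between 20071567 and 45914262 per library, and levels are given as CPM, read counts scaled to the size of the library after TMM factors over all 17 libraries. The 10 genes took 0.647% to 1.19% of the counts in genes in MEF and 0.0520% to 0.172% in XEN and iXEN cells. Of 10 extraembryonic endoderm markers, 9 or 10 reached 1 CPM in each XEN and iXEN library, against 5 or 6 in MEF. Of 12 fibroblast markers (collagens, Thy1, Pdgfrb and others), all 12 reached 1 CPM in each MEF library, with a summed level of 39403 to 55367 CPM. In 3 XEN and iXEN libraries this sum stood apart from the rest. It was 8088 CPM with all 12 markers in XEN 1 in ESC medium, 2436 CPM with all 12 in iXEN 2 in XEN medium, and 1205 CPM with 8 of 12 in iXEN 9 in XEN medium. XEN 2 in ESC medium had 385 CPM with 7 of 12, and the other 10 XEN and iXEN libraries had 16.5 to 51.2 CPM with 2 to 5 of 12. XEN 7 in ESC medium stood apart in another way, with 4955 CPM of endoderm markers, the lowest sum of the 14. It also had 181 CPM of striated muscle markers, nearly all of it Tnnt2 at 179 CPM. Of the endoderm sum, Lama1 made up 1445 CPM and Lamb1 2235 CPM. Not all of these markers were low: Foxq1, at 134 CPM, was at its highest of the ESC medium libraries. Sox17, at 372 CPM, was above XEN 1 and XEN 2 in that medium. This library also had the highest sum of 6 endothelial markers of the ESC medium libraries, 1029 CPM, and XEN 7 in XEN medium had 1499 CPM. The other 12 XEN and iXEN libraries had 50.5 to 677 CPM of them and MEF at most 22.8 CPM. In XEN 7 in ESC medium, Vwf at 624 and Pecam1 at 91.9 CPM were the highest of the ESC medium libraries. Tek, at 211 CPM, was below iXEN 1 and iXEN 2 in that medium. Cdh5, at 100.5 CPM, was at its lowest of the ESC medium XEN and iXEN libraries. Kdr was also at its lowest of these, below its MEF range of 1.94 to 3.42 CPM. Emcn, at 0.391 CPM, lay within its MEF range. The 6 macrophage markers summed to 29.1 to 100.8 CPM in MEF and 3.88 to 27.95 CPM in the 14 XEN and iXEN libraries, with C1qa, C1qb, Emr1 and Tyrobp at 0 in XEN 7 in ESC medium. The part of such transcripts in the values of XEN 7 was not tested.

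The contractile genes were lower in XEN and iXEN cells than in MEF, far lower for Acta2, Tagln and Myh11, less so for Tpm1, and least for Cald1, while no difference was called for Des. For 8 genes, all 14 XEN and iXEN libraries lay below all 3 MEF libraries, and the exceptions were Actg2 and Des. The share of all genes for which this held was not computed, and shares for each group alone are given below. In iXEN cells in ESC medium, 9 of 10 genes fell (edgeR adjusted p under 0.05), against 25.9% of all tested genes that were called lower in the same comparison. In XEN cells in ESC medium, 3 of 10 fell, namely Tagln, Tpm1 and Myh11, against 13.7% of all tested genes. In XEN medium, 4 of 10 fell in iXEN cells, namely Acta2, Tagln, Tpm1 and Myh11, against 14.9%, and 8 of 10 fell in XEN cells, all but Cald1 and Des, against 24.5%. No gene of the set rose in any of these by edgeR or by DESeq2, and none was higher at an unadjusted p under 0.05. DESeq2 gave no adjusted p for Cnn1 and Myl9 in XEN cells in ESC medium or in iXEN cells in XEN medium. Tagln, Tpm1 and Myh11 were the 3 that fell in all 4 comparisons, which share their MEF libraries. Fewer cells with a transcript and less transcript per cell cannot be told apart in these bulk libraries.

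The call counts follow the spread between libraries as well as the size of the difference. The groups did not overlap, with XEN or iXEN cells lower, for 9 of the 10 genes in iXEN cells in ESC medium (31.3% of all tested genes), for 8 in XEN cells in ESC medium (31.7%), for 8 in iXEN cells in XEN medium (29.0%) and for 9 in XEN cells in XEN medium (34.8%). The median log2 fold change of the 10 genes was -5.37 for iXEN and -2.67 for XEN cells in ESC medium, and -3.42 for iXEN and -6.07 for XEN cells in XEN medium. Over all tested genes the 4 medians lay between -0.03 and 0.06. XEN cells in ESC medium gave the fewest calls: 7 genes were called without XEN 1 (16.0% of all tested genes were then called lower), and 0 without MEF 1, 1 without MEF 2 and 1 without MEF 3. Calls over all genes in either direction went from 3507 to 3779 without XEN 1 and to between 372 and 692 without a MEF library. The 4 calls of iXEN cells in XEN medium became 7 without iXEN 2 (19.3% of all tested genes called lower) and 2 without any 1 of the MEF libraries, while calls over all genes went from 4708 to 5487 and to between 1842 and 2245. The 8 calls of XEN cells in XEN medium became 5 without any 1 of the MEF libraries, and calls over all genes went from 6830 to between 3985 and 4632. In these settings the member counts moved in the same direction as the calls over all genes, whereas without XEN 2 in ESC medium 2 genes of the set and 6056 of all genes were called.

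**Figure D1:**
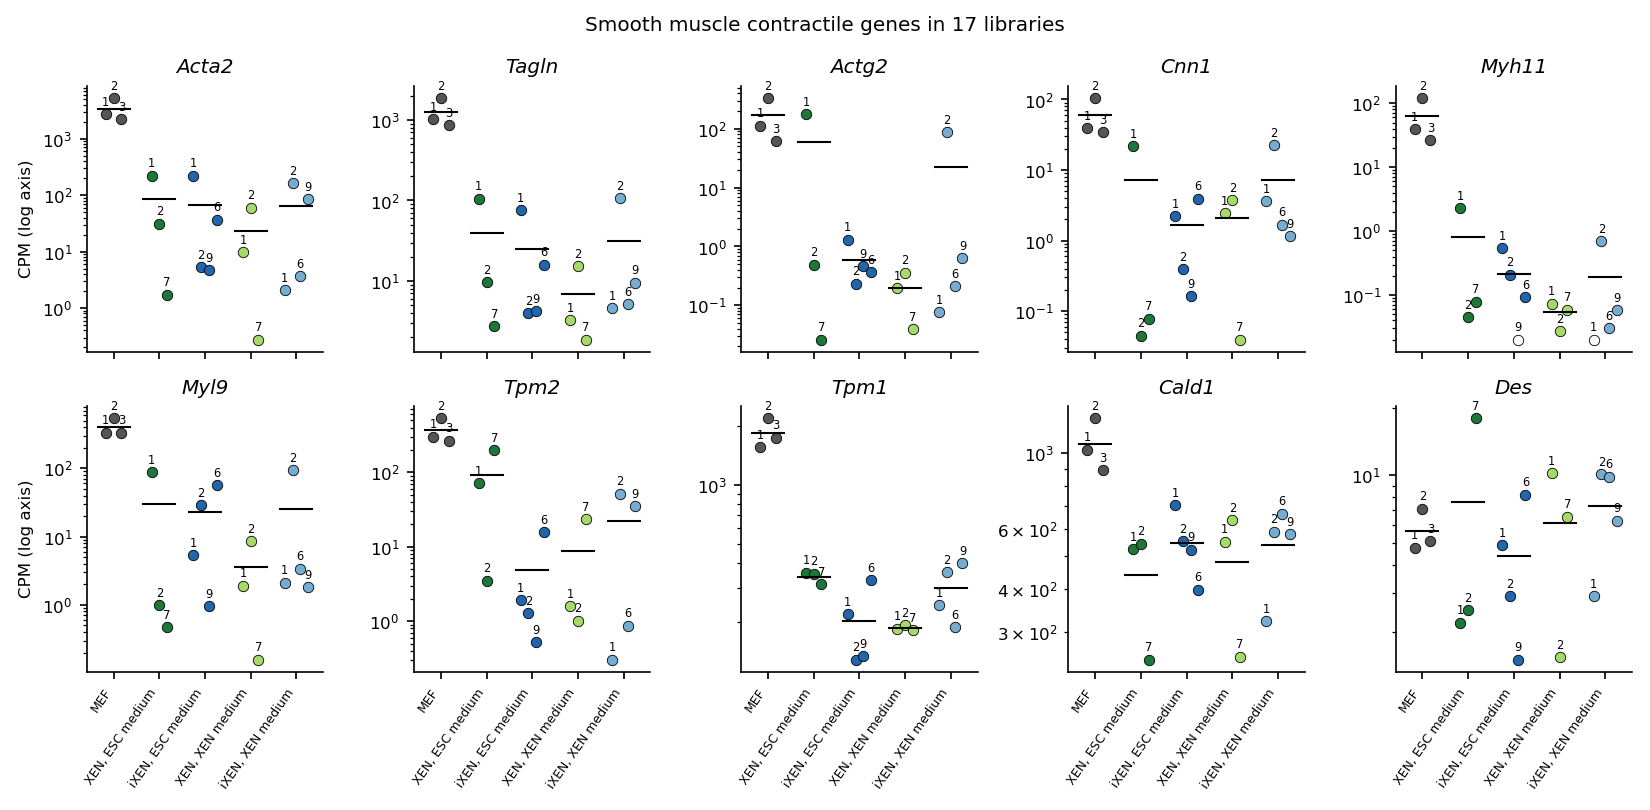
Level of each gene in CPM (log axis, its range differing between panels) in the 17 libraries, by group. Points are libraries with their line or replicate number, lines are group means, and open points at the foot of the Myh11 panel are libraries with 0 counts. MEF lie above all other libraries for 8 genes, and XEN 1 in ESC medium and iXEN 2 in XEN medium reach the MEF range for Actg2.

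Acta2 encodes smooth muscle alpha-actin, the usual marker of smooth muscle and myofibroblasts. It stood at 2724, 5219 and 2239 CPM in MEF 1, 2 and 3. In ESC medium it was 222, 31.3 and 1.72 CPM in XEN 1, 2 and 7, and 221, 5.34, 36.9 and 4.64 CPM in iXEN 1, 2, 6 and 9. In XEN medium it was 9.65, 60.2 and 0.275 CPM in XEN 1, 2 and 7, and 2.05, 165, 3.64 and 85.1 CPM in iXEN 1, 2, 6 and 9. The highest of these 14 values was 6.53% of the MEF mean and their median 0.603%, so the groups stood far apart from MEF, yet lines within a group differed by up to 219-fold (XEN cells in XEN medium). The log2 fold change against MEF was -5.61 ± 1.38 (SE, adjusted p = 0.0101) for iXEN cells in ESC medium, -5.60 ± 1.54 (0.0295) for iXEN cells in XEN medium and -7.14 ± 1.84 (0.0213) for XEN cells in XEN medium. It was -5.27 ± 1.64 for XEN cells in ESC medium and was not called there (adjusted p = 0.0592), but was called without XEN 1 (-7.64, adjusted p = 0.0286), without XEN 7 (-4.53, 0.0263) and by DESeq2 (0.000227). In XEN medium both calls were lost without any 1 of the MEF libraries (adjusted p = 0.0703 to 0.0761 for iXEN and 0.0527 to 0.0558 for XEN cells), without iXEN 9 (0.0544) and without XEN 1 (0.0566). Little of the Acta2 transcript sequence is shared: of 1986 windows of 50 bases along it, 7 also occur in another gene, the pseudogene Actg-ps1. The reads themselves were not examined.

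Actg2 encodes the gamma-actin of enteric smooth muscle. It was at 113, 331 and 61.7 CPM in MEF 1, 2 and 3. XEN 1 in ESC medium had 176 CPM and iXEN 2 in XEN medium 87.6 CPM, both inside the MEF range, while the other 12 XEN and iXEN libraries had 0.0261 to 1.30 CPM. It fell in iXEN cells in ESC medium (log2 fold change -8.16 ± 0.83, adjusted p = 9.98e-05) and in XEN cells in XEN medium (-9.74 ± 1.12, 0.00148). These are the 2 groups without one of those libraries. In XEN cells in ESC medium the value was -1.47 ± 2.22 (adjusted p = 0.642), and -9.43 (0.0169) without XEN 1. In iXEN cells in XEN medium it was -2.81 ± 2.05 (0.314), and -8.95 (0.00293) without iXEN 2. The low libraries held few reads of this gene, 1 to 31 counts each, so the size of its fitted fold change there is imprecise. The non-muscle actin Actg1, for comparison, was not called in any of the 4 comparisons (log2 fold change 0.0011 to 0.73).

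Myh11 encodes the smooth muscle myosin heavy chain, the most restricted of the markers of mature smooth muscle. It was at 39.6, 121 and 26.2 CPM in MEF 1, 2 and 3. XEN 1 in ESC medium had 2.29 CPM (50 counts), iXEN 2 in XEN medium 0.689 CPM (28 counts) and iXEN 1 in ESC medium 0.546 CPM (13 counts). In the remaining 11 libraries it was at 0 to 9 counts, with 0 in iXEN 9 in ESC medium and iXEN 1 in XEN medium, where a count of 0 allows up to 3 counts, or 0.0981 and 0.114 CPM in these libraries. Myh11 fell in all 4 comparisons, with log2 fold changes of -8.18 ± 0.95 for iXEN and -6.25 ± 1.59 for XEN cells in ESC medium (adjusted p = 0.000207 and 0.0348), and of -8.11 ± 1.39 for iXEN and -10.04 ± 0.93 for XEN cells in XEN medium (0.00621 and 0.000813). The last value rests on 7 counts in 3 XEN libraries. The call in XEN cells in ESC medium was lost without any 1 of the MEF libraries (adjusted p = 0.0876 to 0.113). Of 6500 windows of 50 bases along the Myh11 transcript, 26 also occur in Myh9, a non-muscle myosin heavy chain gene, and the other 8 genes described here, all but Acta2 and Myh11, shared no window with another gene.

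Myl9 encodes the regulatory light chain whose phosphorylation switches smooth muscle myosin on. It was at 334, 544 and 332 CPM in MEF 1, 2 and 3. In ESC medium it was 87.6, 0.985 and 0.470 CPM in XEN 1, 2 and 7, and 5.29, 28.9, 56.3 and 0.947 CPM in iXEN 1, 2, 6 and 9. In XEN medium it was 1.91, 8.61 and 0.157 CPM in XEN 1, 2 and 7, and 2.13, 93.1, 3.40 and 1.82 CPM in iXEN 1, 2, 6 and 9. All 14 were below MEF, and 3 of them (XEN 1 and iXEN 6 in ESC medium, iXEN 2 in XEN medium) were above 50 CPM. Myl9 fell in iXEN cells in ESC medium (-4.10 ± 1.09, adjusted p = 0.0149), a call lost in a fit of all 17 libraries (-4.11, 0.108), and in XEN cells in XEN medium (-6.78 ± 1.40, 0.00991). It was -3.70 ± 1.86 in XEN cells in ESC medium (0.18) and -3.88 ± 1.48 in iXEN cells in XEN medium (0.0795). Without XEN 1 and without iXEN 2 these became -9.07 (0.00407) and -7.29 (0.000658).

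Tagln encodes transgelin (SM22), a calponin-related protein that bundles actin and an early smooth muscle marker. It was at 1029, 1869 and 868 CPM in MEF 1, 2 and 3. In ESC medium it was 106, 9.67 and 2.74 CPM in XEN 1, 2 and 7, and 75.9, 4.02, 15.9 and 4.25 CPM in iXEN 1, 2, 6 and 9. In XEN medium it was 3.23, 15.4 and 1.87 CPM in XEN 1, 2 and 7, and 4.63, 107, 5.17 and 9.50 CPM in iXEN 1, 2, 6 and 9. The same 3 libraries, XEN 1 and iXEN 1 in ESC medium and iXEN 2 in XEN medium, were the highest for Tagln and for Acta2, and none exceeded 8.51% of the MEF mean. Tagln fell in every comparison, with log2 fold changes of -5.60 ± 1.11 in iXEN (adjusted p = 0.00355) and -4.94 ± 1.42 in XEN cells (0.0485) in ESC medium, and of -5.20 ± 1.30 in iXEN (0.022) and -7.48 ± 1.06 in XEN cells (0.00285) in XEN medium. The call in XEN cells in ESC medium sat at the threshold: it was lost with another scaling (RLE factors, adjusted p = 0.0508) and without XEN 2 (0.0835) or any 1 of the MEF libraries (0.116 to 0.126). In iXEN cells in XEN medium it was lost without any 1 of the MEF libraries (0.0557 to 0.0607).

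Cnn1 encodes calponin 1, which binds actin and inhibits the myosin ATPase. It was at 39.3, 105 and 34.7 CPM in MEF 1, 2 and 3. XEN 1 in ESC medium and iXEN 2 in XEN medium had 21.6 and 22.3 CPM, up to 37.4% of the MEF mean, and the other 12 XEN and iXEN libraries had 0.0393 to 3.92 CPM. It fell in iXEN cells in ESC medium (-5.14 ± 0.99, adjusted p = 0.00305) and XEN cells in XEN medium (-4.81 ± 1.32, 0.0261), a call lost without any 1 of the MEF libraries (0.0607 to 0.0829), without XEN 1 (0.0593) and in a fit of all 17 libraries (0.0835). In XEN cells in ESC medium it was -2.99 ± 1.95 (0.284), and -9.69 (0.0058) without XEN 1. In iXEN cells in XEN medium it was -2.95 ± 1.08 (0.0697), and -4.75 (0.00377) without iXEN 2.

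Cald1 encodes caldesmon, whose long form belongs to smooth muscle and whose short form is made in many cell types. Counts per gene do not separate these forms. It was at 1025, 1268 and 892 CPM in MEF 1, 2 and 3. In ESC medium it was 524, 543 and 248 CPM in XEN 1, 2 and 7, and 705, 551, 398 and 521 CPM in iXEN 1, 2, 6 and 9. In XEN medium it was 550, 636 and 253 CPM in XEN 1, 2 and 7, and 321, 589, 666 and 578 CPM in iXEN 1, 2, 6 and 9. The fitted group differences from MEF were 1.85- to 2.33-fold. Single libraries ran from 23.3% (XEN 7 in ESC medium) to 66.4% (iXEN 1 in ESC medium) of the MEF mean. Cald1 was below the lowest MEF library in all 14, with XEN 7 the lowest in both media. It fell in iXEN cells in ESC medium (-0.93 ± 0.24, adjusted p = 0.0127), a call lost without MEF 2 (0.0622) and in a fit of all 17 libraries (0.0605). In the others it was -1.22 ± 0.39 (0.0644), -0.89 ± 0.34 (0.0808) and -1.10 ± 0.38 (0.054), for XEN cells in ESC medium, iXEN cells in XEN medium and XEN cells in XEN medium, and DESeq2 called each of them (0.0138, 0.0221 and 0.0144).

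Tpm1 encodes a tropomyosin with both muscle and non-muscle splice forms, which these counts also leave unresolved. It was at 1556, 2180 and 1733 CPM in MEF 1, 2 and 3. In ESC medium it was 357, 353 and 312 CPM in XEN 1, 2 and 7, and 220, 129, 327 and 135 CPM in iXEN 1, 2, 6 and 9. In XEN medium it was 186, 194 and 183 CPM in XEN 1, 2 and 7, and 245, 360, 189 and 400 CPM in iXEN 1, 2, 6 and 9. Lines agreed more closely than for most of the set, and Tpm1 fell in all 4 comparisons, with log2 fold changes of -3.13 ± 0.37 (adjusted p = 0.000242) in iXEN and -2.36 ± 0.31 (0.00694) in XEN cells in ESC medium, and of -2.52 ± 0.37 (0.00423) in iXEN and -3.24 ± 0.24 (0.000391) in XEN cells in XEN medium. The call in XEN cells in ESC medium was lost without MEF 1 (0.0516).

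Tpm2 encodes beta-tropomyosin. It was at 301, 535 and 266 CPM in MEF 1, 2 and 3. In ESC medium it was 71.4, 3.49 and 198.5 CPM in XEN 1, 2 and 7, and 1.93, 1.28, 15.9 and 0.523 CPM in iXEN 1, 2, 6 and 9. In XEN medium it was 1.59, 1.02 and 23.5 CPM in XEN 1, 2 and 7, and 0.304, 51.9, 0.872 and 34.8 CPM in iXEN 1, 2, 6 and 9. Tpm2 had its highest value among the 14 in XEN 7, a library with Acta2 at 1.72 and Actg2 at 0.0261 CPM. That value was 54.0% of the MEF mean. It fell in iXEN cells in ESC medium (-6.20 ± 1.15, adjusted p = 0.00261) and XEN cells in XEN medium (-5.35 ± 1.37, 0.0208), a call lost without any 1 of the MEF libraries (0.0521 to 0.0572) and in a fit of all 17 libraries (0.0543). Without XEN 7 that value was -8.09. In XEN cells in ESC medium it was -1.93 ± 1.18 (0.256), and -3.07 ± 1.27 (0.112) without XEN 7. In iXEN cells in XEN medium it was -3.93 ± 1.52 (0.0824, and 0.00495 by DESeq2), and -9.20 ± 0.76 (0.000346) without iXEN 2 and iXEN 9.

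Des encodes desmin, the intermediate filament protein of muscle, and was the only gene of the set that edgeR called in none of the 4 comparisons with MEF. It was at 4.76, 7.11 and 5.10 CPM in MEF 1, 2 and 3, and at 1.50 to 18.0 CPM in the other 14 libraries, or 26.6% to 319% of the MEF mean. Of these, 8 exceeded the lowest MEF library and 3 lay within the MEF range, so levels scattered to both sides of MEF. XEN 7 in ESC medium was the highest, the library that was also highest in Tpm2 and Tnnt2. The log2 fold changes were -0.33 (95% interval -1.59 to 0.93) for iXEN and 0.51 (-1.62 to 2.63) for XEN cells in ESC medium, and 0.46 (-0.77 to 1.69) for iXEN and 0.15 (-1.44 to 1.75) for XEN cells in XEN medium. The XEN values were -1.12 without XEN 7 in ESC medium and -0.42 without XEN 1 in XEN medium. Differences of up to about these bounds are not excluded by 3 or 4 libraries a group.

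**Figure D2:**
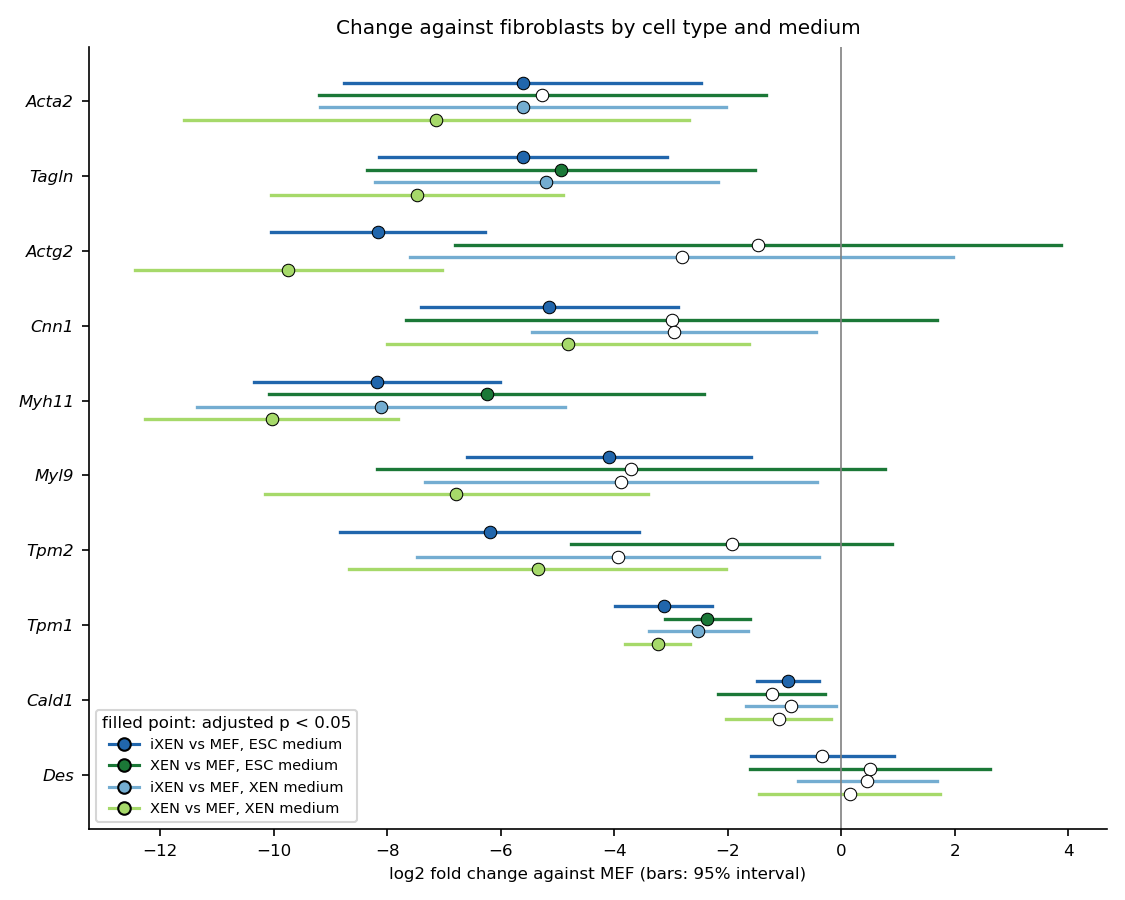
Log2 fold change against MEF of each gene (horizontal axis) in the 4 comparisons, with bars for 95% intervals and filled points for adjusted p under 0.05. Acta2, Tagln and Myh11 lie between -10.04 and -4.94, Tpm1 between -3.24 and -2.36, and Des near 0, and the intervals of Actg2 are widest where XEN 1 in ESC medium or iXEN 2 in XEN medium is included.

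On a per-length scale (CPM per kb of merged exons, an approximate length from GENCODE M21), which allows genes to be ranked, Acta2 led in MEF at 1668 ± 786 (SD, n = 3), above Tagln at 787 ± 337, Tpm1 at 381 ± 67.3, Myl9 at 357 ± 108, Cald1 at 208 ± 37.3, Tpm2 at 154 ± 61.4, Actg2 at 123 ± 105, Cnn1 at 23.6 ± 15.5, Myh11 at 9.41 ± 7.73 and Des at 1.87 ± 0.42. Among neighbours in this order, the ranges over the 3 MEF libraries overlapped for Acta2 and Tagln, Tpm1 and Myl9, Cald1 and Tpm2, Tpm2 and Actg2, and Cnn1 and Myh11. They did not overlap for Tagln and Tpm1, Myl9 and Cald1, Actg2 and Cnn1, or Myh11 and Des. Cald1 led in iXEN cells in ESC medium at 106 ± 24.7 CPM per kb (n = 4), above Tpm1 at 42.4 ± 19.4 and Acta2 at 32.9 ± 51.0. The means of Acta2 and Cald1 thus stood in opposite order in MEF and in iXEN cells. MEF 2 was the highest of the 3 MEF libraries for all 10 genes, although its fibroblast marker sum, 39403 CPM, was the lowest.

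Genes around the contractile set were taken from lists of known roles. Their counts are to be read against the shares of all tested genes called lower, which were 25.9% for iXEN and 13.7% for XEN cells in ESC medium and 14.9% for iXEN and 24.5% for XEN cells in XEN medium. The shares called higher were 20.8% for iXEN and 11.4% for XEN cells in ESC medium. In XEN medium they were 17.7% and 23%. Of 8 genes for SRF and its cofactors, 1 rose and 2 fell in iXEN and 1 rose and 1 fell in XEN cells in ESC medium, and 1 rose and 2 fell in both cell types in XEN medium, so that falls were about as frequent as over all genes in ESC medium and in XEN cells in XEN medium. Srf itself was not called in any comparison with MEF (log2 fold change -0.18 to 0.40) and stood at 35.1 to 159 CPM in XEN and iXEN libraries against 91.6 to 95.2 in MEF. Csrp2, a LIM-domain protein that bridges SRF and GATA factors, rose in all 4 (1.08 in iXEN and 2.35 in XEN cells in ESC medium, 2.45 and 1.80 in XEN medium), and Csrp1, its relative, was not called (-0.77 to -0.28). Myocd, the myocardin gene, was chosen here after its values were seen. It was at 0.766 to 1.16 CPM in MEF, fell in XEN cells (-3.87 ± 0.81 in ESC and -4.84 ± 1.02 in XEN medium, adjusted p = 0.0204 and 0.0107), and was not called in iXEN cells (-0.22 ± 1.44 and -1.42 ± 1.19). Among iXEN libraries it reached 3.18 CPM in iXEN 6 in ESC medium and 0.763 CPM in iXEN 2 and 0.570 CPM in iXEN 1 in XEN medium, and was at or under 0.0840 CPM in the others. The iXEN library highest in Myocd, iXEN 6, had 36.9 CPM of Acta2 and 0.0922 CPM of Myh11. Mkl1 and Mkl2, also on this list, are named here after their values were seen. Mkl1 was at 55.6 to 65.8 CPM in MEF and 19.4 to 45 CPM in the 14 XEN and iXEN libraries. Mkl2 was at 48.4 to 54.4 CPM in MEF and 13.99 to 40.9 CPM in the 14. Neither was called in XEN cells in ESC medium, where the 1 gene of the list that fell was Myocd.

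Of 11 tested genes on a list of further smooth muscle genes, 9 fell in iXEN and 5 in XEN cells in ESC medium, 7 in iXEN and 8 in XEN cells in XEN medium, and 0 rose by edgeR, of which 0 at an unadjusted p under 0.05 as well. The median log2 fold changes were -3.49, -3.48, -2.47 and -3.79. Mylk, the kinase that phosphorylates the light chain encoded by Myl9, fell in all 4 (-9.17 ± 0.56 and -8.41 ± 0.68 for iXEN and XEN cells in ESC medium, -7.68 ± 1.61 and -8.56 ± 0.71 in XEN medium). It went from 95.9 to 148 CPM in MEF to 2.12 CPM in iXEN 2 in XEN medium and at most 0.612 CPM in the other 13 libraries. XEN 1 in ESC medium, with Actg2 in the MEF range, had 0.551 CPM of Mylk. Pdlim7, a LIM protein of actin bundles, was not called (-0.66 to -0.09). Smtn, encoding smoothelin, fell in XEN cells in XEN medium (-1.32 ± 0.22, adjusted p = 0.00453) and was not called in the others (-0.55 to 0.35).

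The non-muscle counterparts of the set had medians closer to 0 than the contractile genes, a difference that was not tested. Of 12 genes, 6 fell in iXEN and 3 in XEN cells in ESC medium, and 2 fell and 1 rose in iXEN and 5 fell and 1 rose in XEN cells in XEN medium (25.9%, 13.7%, 14.9% and 24.5% of all tested genes were called lower), with medians of -0.58, -0.40, -0.35 and -0.42. Actb, the beta-actin gene, fell in iXEN cells in ESC medium (-0.92 ± 0.22, adjusted p = 0.00908) and XEN cells in XEN medium (-0.80 ± 0.26, 0.0469), and was at -0.23 and -0.40 in the others. Myl6, a non-muscle and smooth muscle light chain, was not called (-0.38 to 0.44). Among genes that switch contraction on and off, Rhoa, a small GTPase that promotes contraction, was not called (-0.38 to 0.0042), and Ppp1cb, a myosin phosphatase subunit, fell in iXEN cells in ESC medium (-0.46 ± 0.15, 0.037).

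Of 12 genes of the TGF-beta pathway, 8 fell in iXEN and 6 in XEN cells in ESC medium, 5 in iXEN and 7 in XEN cells in XEN medium, against 25.9%, 13.7%, 14.9% and 24.5% of all tested genes, and 1 rose in each. The one that rose was Ctgf, a secreted matricellular protein, with log2 fold changes of 2.92, 3.10, 3.06 and 2.39. Its relative Cyr61 fell in 3 of the 4 (-1.68, -1.93 and -1.94, and -1.03 with adjusted p = 0.0582 in iXEN cells in XEN medium). Tgfbr3, the co-receptor betaglycan, was not called (-0.91 to 0.60). Of 14 striated muscle genes, 7 to 10 passed the filter on low counts, which a gene high in 1 group alone can pass. In ESC medium, 2 of 9 rose in iXEN and 2 of 7 in XEN cells. In XEN medium, 2 of 8 and 2 of 10 rose. Over all tested genes, 20.8%, 11.4%, 17.7% and 23% were called higher in these comparisons. In XEN cells 1 gene fell in each medium. Tnni1, slow skeletal troponin I, rose in all 4 (5.04 to 7.35). It was at 0.267 ± 0.137 CPM in MEF (SD, n = 3) and at 21.5 ± 15.7 CPM in iXEN cells in ESC medium (n = 4). Tnnt2, cardiac troponin T, rose in ESC medium (2.41 in iXEN and 5.10 in XEN cells, the latter with 25.5, 5.55 and 179 CPM in XEN 1, 2 and 7 and 3.06 ± 0.78, adjusted p = 0.0319, without XEN 7), and Tnnc1, troponin C, in XEN medium (1.96 in iXEN and 2.04 in XEN cells). The gene that fell was Ttn, encoding titin, named here after its values were seen (-2.37 ± 0.54 in ESC and -2.46 ± 0.55 in XEN medium, adjusted p = 0.0256 and 0.0132).

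iXEN cells were then set against XEN cells. Myh11 was under the filter on low counts, and 0 of the 9 remaining genes were called by edgeR in ESC medium or in XEN medium, against 0% of all tested genes in both. At an unadjusted p under 0.05, 2 genes were lower in iXEN cells in ESC medium, Tpm2 (-4.26 ± 1.47, adjusted p = 0.344) and Actg2 (-6.70 ± 2.24, 0.342), and 1 was higher in XEN medium, Actg2 (6.86 ± 2.73, 0.985). DESeq2 called 1 of 8 genes, Tpm2, in ESC medium (adjusted p = 0.022), and 0 of 6 in XEN medium. It gave no adjusted p for Actg2 in either medium, or for Tagln and Myl9 in XEN medium. The Actg2 value in ESC medium was 1.23 without XEN 1, and the Tpm2 value -2.97 without XEN 7. The intervals for Acta2 were wide, -4.05 to 3.31 in ESC medium and -2.51 to 5.54 in XEN medium on the log2 scale, and the design could have missed large differences. Over all genes, 1770 were under 0.05 unadjusted in ESC medium and 544 in XEN medium, and DESeq2 called 393 and 75.

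The medium was compared within each cell type, with the same lines in both. By edgeR 0 of 9 genes were called in XEN cells and 0 of 9 in iXEN cells, against 0% of all tested genes, also with the line as a block. At an unadjusted p under 0.05, Tpm1 (-0.90 ± 0.26) and Actg2 (-8.28 ± 2.99) were lower in XEN medium in XEN cells, and Actg2 was higher (5.25 ± 2.04) in iXEN cells. DESeq2 called 0 of 7 in both, against 0.507% of all genes with an adjusted p in XEN cells and 12.7% in iXEN cells. It gave no adjusted p for Actg2 in either, for Myl9 in XEN cells or for Tagln in iXEN cells. The interaction of cell type and medium was called for 0 of 10 genes by edgeR (0% of all tested genes). DESeq2 called 0 of 9 for it, against 3.4% of all genes with an adjusted p, and gave none for Actg2. By edgeR, 3 genes (Tpm1, Tpm2 and Actg2) were under 0.05 unadjusted. The Actg2 difference in XEN cells came to -0.37 without XEN 1 in ESC medium, and that in iXEN cells to -0.88 without iXEN 2 in XEN medium.

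Individual lines moved by far more than their group means. In iXEN 2 and iXEN 9 all 10 genes read higher in XEN medium, whereas 2 of 10 were higher in each of iXEN 1, iXEN 6, XEN 1 and XEN 7, and 5 in XEN 2. The share of all genes higher in XEN medium in each line was not computed, so these counts cannot be set against it. Some of these directions rest on few counts. In ESC and XEN medium, iXEN 9 had 0 and 2 counts of Myh11 and 14 and 22 of Actg2, and XEN 7 had 1 and 2 of Actg2. Acta2 went from 221 to 2.05 CPM in iXEN 1 (107.8-fold lower) and from 5.34 to 165 CPM in iXEN 2 (30.8-fold higher). Actg2 went from 176 to 0.196 CPM in XEN 1 (896-fold lower) and from 0.232 to 87.6 CPM in iXEN 2 (377-fold higher). Tpm2 went from 0.523 to 34.8 CPM in iXEN 9 (66.7-fold higher) and was lower in XEN medium in 3 of 3 XEN lines. Tpm1 was also lower in 3 of 3 XEN lines (1.92-, 1.83- and 1.71-fold) and higher in 3 of 4 iXEN lines, while Cald1 was higher in 3 of 3 XEN and 3 of 4 iXEN lines. These changes of single lines rest on 1 library in each medium and have no replicate check.

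**Figure D3:**
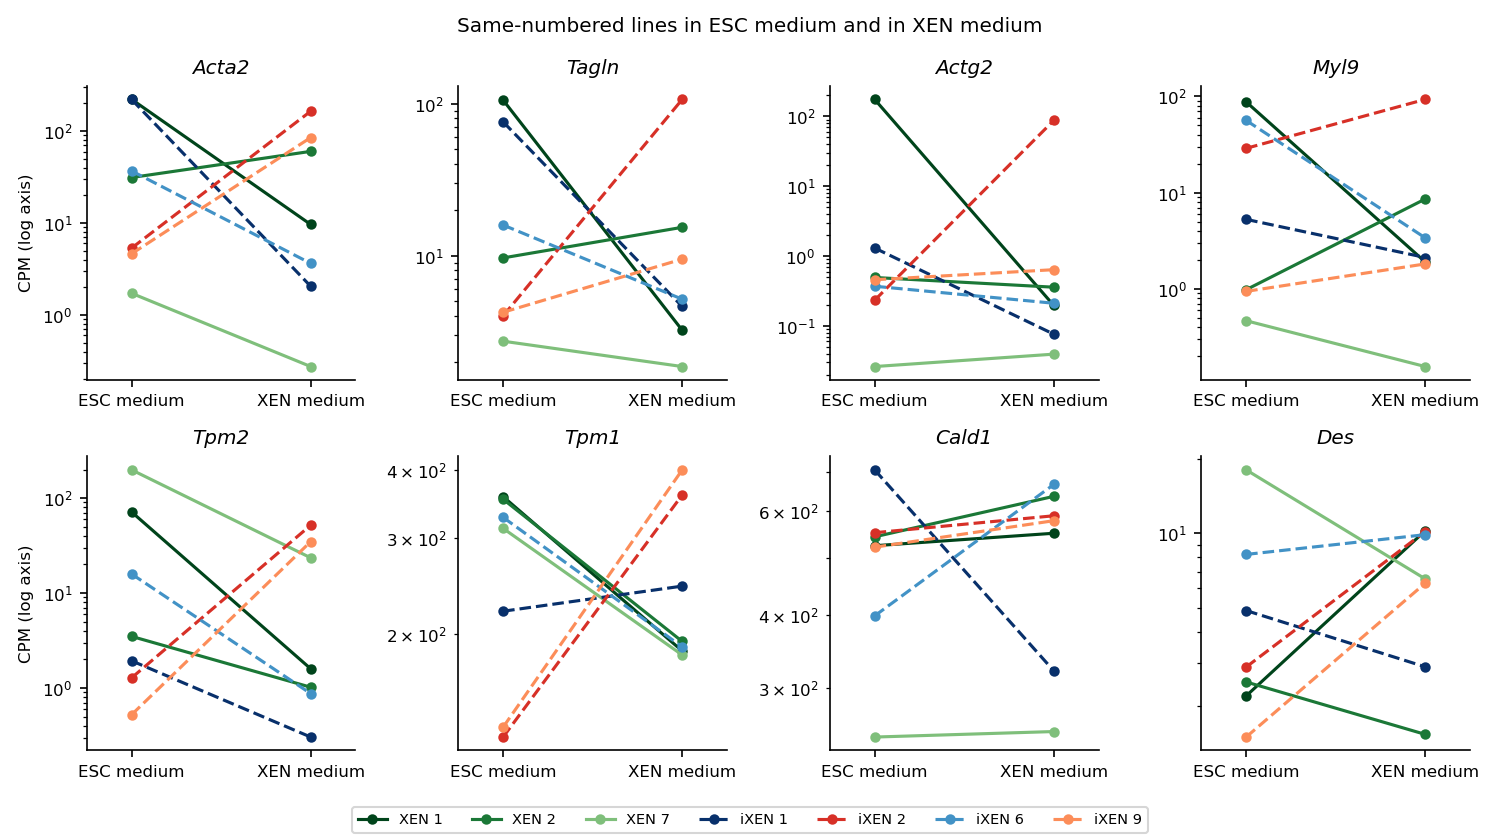
Level in CPM (log axis) of 8 of the genes in each XEN line (solid) and iXEN line (dashed) in ESC medium and in XEN medium. Each point is 1 library. The lines iXEN 2 and iXEN 9 rise in all panels, XEN 1 and iXEN 1 fall steeply for Acta2 and Tagln, and Tpm1 falls in the 3 XEN lines.

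High values of the set came in libraries of different make-up. XEN 1 in ESC medium had 16.8% of the mean MEF sum of fibroblast markers, and its contractile genes ranged from 3.69% (Myh11) and 6.53% (Acta2) of their MEF means to 36.2% (Cnn1) and 104% (Actg2). iXEN 2 in XEN medium had 5.07% of the fibroblast sum, with Myh11 at 1.11%, Acta2 at 4.85%, Cnn1 at 37.4% and Actg2 at 51.9%. iXEN 9 in XEN medium had 2.51% of the fibroblast sum, with Acta2 also at 2.51%, Tpm2 at 9.48% and Actg2 at 0.378%. Other high values came with low sums of fibroblast markers, of which collagens make up a large part: iXEN 1 in ESC medium, with Acta2 at 6.51% and Tagln at 6.05% of MEF, had 0.0803% of the fibroblast sum, with 5 of 12 markers at 1 CPM or more. XEN 7 in ESC medium, with Tpm2 at 54.0%, had 0.0907%, with 3 of 12 at 1 CPM or more. Those were Twist1 at 23.3 CPM, against 39.2 to 65.4 CPM in MEF, Fbn1 at 14.4 CPM and Dcn at 4.67 CPM, while Thy1, Pdgfrb, Lum and Lox were at 0. The part of fibroblast transcripts in the values of these 5 libraries was not tested. Pericyte markers, a list of 6, summed to 140.9 to 155.6 CPM in MEF and 22.9 to 122.8 CPM in XEN and iXEN libraries, with 43.8 CPM in XEN 1 in ESC medium and 39.4 CPM in iXEN 2 in XEN medium. Without XEN 1, 7 of 10 genes were called lower in XEN cells in ESC medium, against 16.0% of all tested genes. Without iXEN 2 and iXEN 9, a choice made after the data were seen, 8 of 10 were called lower in iXEN cells in XEN medium, with 28.8% of all tested genes called lower and 7440 called in either direction.

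**Figure D4:**
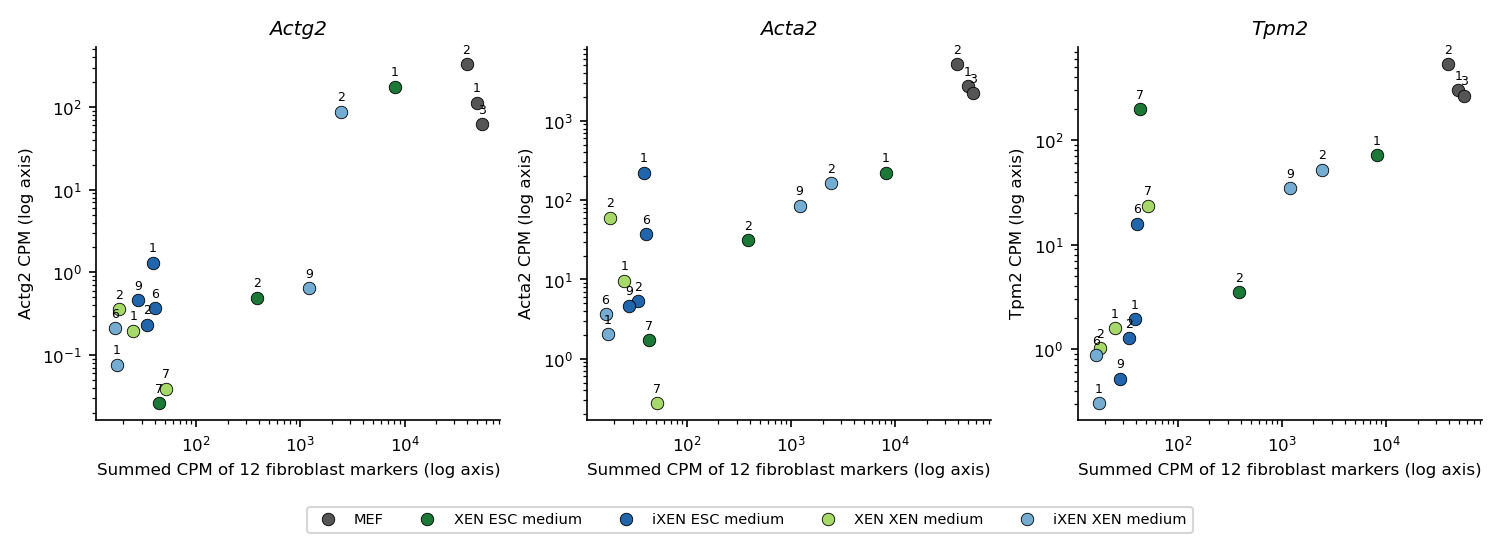
Level of Actg2, Acta2 and Tpm2 in CPM (vertical log axes) against the summed CPM of 12 fibroblast markers (horizontal log axis) in the 17 libraries, numbered by line or replicate. XEN 1 in ESC medium and iXEN 2 in XEN medium, at 8088 and 2436 CPM of the markers, are the 2 non-MEF libraries in the MEF range for Actg2, while iXEN 1 in ESC medium (Acta2) and XEN 7 in ESC medium (Tpm2) are high at under 50 CPM.

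Across the 14 XEN and iXEN libraries, as a description in which each line stands in 2 libraries and high values of a few libraries weigh most, Pearson's r of log CPM with the log summed fibroblast markers was 0.828 for Actg2, 0.708 for Tpm1, 0.689 for Myh11, 0.652 for Tpm2, 0.639 for Tagln and 0.602 for Acta2, and 0.422 for Myl9, 0.380 for Cnn1, 0.181 for Cald1 and -0.026 for Des. Among the genes themselves r was 0.898 for Acta2 and Tagln, 0.873 for Tagln and Actg2, 0.845 for Actg2 and Myh11, 0.798 for Cnn1 and Myl9 and 0.684 for Tpm1 and Tpm2. Acta2 and Tpm2 had r = 0.191, and Cald1 and Tpm2 r = -0.377. Outside the set, the 5 of 12240 ranked genes most like Acta2 over these 14 libraries were Pvrl1 (r = 0.868), which encodes the adhesion molecule nectin-1, Ly6e (0.843), 3632451O06Rik (0.839), and, both at 0.83, Iglon5 and Col5a1, a fibrillar collagen gene.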

How the data were processed

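Messenger RNA was prepared with Trizol and the Illumina TruSeq mRNA kit, per the labels' protocols. The authors deposited whole-number read counts per gene, 1 file per library, and the submitters' processing notes name FastQC 0.11.3, Trimmomatic 0.32, TopHat2 2.0.12, HTSeq 0.6.1 and build mm9. The sources used here give no parameters, annotation or strand setting for these steps. Reads shared by overlapping or antisense genes therefore cannot be told apart. The counter's own lines, 20.8% to 33.1% of each file, were left out, and 0 columns of samples went unused.

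Libraries were compared with edgeR 4.0.16 in R 4.3.3: 9 comparisons, only the groups compared in each fit, filterByExpr (minimum count 10, total 15), TMM scaling, the two-sided quasi-likelihood test over all genes kept, and Benjamini-Hochberg adjustment at 0.05. "Called", "rose" and "fell" mean an adjusted p under 0.05, and ± after a log2 fold change is its SE. Alternatives were RLE factors, DESeq2 1.42.0, no filter, all 17 libraries in 1 fit, the number as a replicate block, and leaving out each library. The edgeR and DESeq2 fits were tested on simulated counts. No pair of libraries of a group agreed within sampling noise (chi-square per degree of freedom 43.4 to 1219). The p-values measure the spread between these libraries, which may be in part technical, as nothing says how separately they were derived. Line numbers in the titles pair the libraries between media, and same-numbered libraries deviated together there in 6 of 7 lines (correlations 0.132 to 0.643, and -0.062 for iXEN 9).

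All 10 genes are named, with the 3 genes of highest mean CPM of each list and genes a result turns on. The genes and lists were chosen with earlier results of these data known. Promoter windows were matched by symbol and are of another build than the counts. One gene of the contraction switch list is not reported here, so no counts are given for that list.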

Additional observations from a re-analysis of the deposited data

Results flagged for a closer look

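In the 2 iXEN groups, of 4 libraries each, 8 of 20 sets of values (10 genes in 2 media) had 1 library far from the other 3 by Dixon's test at its 95% critical value for 4 samples. Chance flags about 1 in 20 where sets are independent and values normally distributed. The test was run on CPM without a log transform, and the sets share libraries, so that rate need not hold here. It was run on these 10 genes only, so no rate over all genes is at hand. In XEN medium, iXEN 2 was that library for 5 genes: Tagln at 106.8 CPM, Cnn1 at 22.29 CPM, Myl9 at 93.07 CPM, Actg2 at 87.56 CPM and Myh11 at 0.6889 CPM, each the highest of the 4. In ESC medium, iXEN 1 was apart for Acta2 at 221 CPM and Tagln at 75.92 CPM, and iXEN 6 for Tpm2 at 15.87 CPM. iXEN 2 in XEN medium carried 12 of 12 fibroblast markers at 1 CPM or more, while iXEN 1 and iXEN 6 in ESC medium carried 5 of 12. The part of those transcripts in the values was not tested.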

How the results depend on the processing

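Counts of called genes that moved were these. For XEN cells against MEF in ESC medium (3 called), DESeq2 gave 5 of 8 tested, the replicate block 0, and leaving out 1 library 0 to 7. For iXEN cells against MEF in XEN medium (4 called), the replicate block gave 0, leaving out iXEN 2 and 9 gave 8 (added after seeing the data), and leaving out 1 library 2 to 7. For XEN cells against MEF in XEN medium (8 called), leaving out 1 library gave 5 to 9. For iXEN against XEN cells in ESC medium, DESeq2 gave 1 of 8 tested. The count for iXEN cells against MEF in ESC medium stayed at 7 to 9 of 10 under every setting run. Signs were compared for all 10 genes against MEF, and in the other comparisons only for genes under 0.05 unadjusted. Among these, they turned for uncalled values of Des and Actg2 alone. Des in XEN cells against MEF was -1.25 with the replicate block in ESC medium (leaving out 1 library -1.12 to 1.03) and -0.48 in XEN medium (-0.42 to 0.63), and in iXEN cells in XEN medium -0.05 with the block. Actg2 ran from -7.43 to 1.23 for iXEN against XEN cells in ESC medium and from -0.88 to 5.98 for the medium in iXEN cells when 1 library was left out. Without iXEN 2 and iXEN 9 in XEN medium, Actg2 was -2 for the medium in iXEN cells. Without these and XEN 1 in ESC medium, but with XEN 2 kept, it was -1.64 for the interaction. The cause was not tested. Over all genes, the replicate block moved 3507 calls to 1303 for XEN cells in ESC medium and 4708 to 0 for iXEN cells in XEN medium. Leaving out a MEF library moved them to between 372 and 692 and to between 1842 and 2245. MEF, XEN and iXEN libraries share only a number (correlations of same-numbered libraries -0.275 to 0.134), and the block between media changed no call. Cald1 in iXEN cells against MEF in ESC medium was -0.83 with the block (adjusted p = 0.0585). Depth limits Myh11 and Actg2, at a few counts in most XEN and iXEN libraries.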
